A study of Homo sapiens with 3 samples.

Results

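A set of 10 listed genes of coenzyme Q (ubiquinone) synthesis and handling was followed across 3 arrays of HepG2 cells: COQ2, COQ3, COQ4, COQ5, COQ6, COQ7, COQ8A, COQ8B, COQ9 and COQ10A. They were taken as every probe set that names 1 of these genes and no other, which gave 10 probe sets, 1 for each gene, out of 18417 genes measured. HepG2 is an established human liver tumour line. The members were chosen by gene name, with the log2 differences between these same arrays already known. A single array each came from cultures given graphene oxide (GO) over 24 h, cultures given reduced graphene oxide (rGO) over 24 h, and untreated control cultures. Each material was given at its own EC20, a dose tied by a viability assay to a 20% effect. The concentrations behind the EC20 are not given in the labels, so GO and rGO may have been compared at different ones. All 3 groups were the same cell line and differed, by the labels, in the exposure alone.

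Coenzyme Q is a lipid that carries electrons in the inner mitochondrial membrane, from the dehydrogenases that reduce it to complex III, which oxidises it again. It is built by joining a benzoquinone ring precursor to a long isoprenoid tail, after which the ring is hydroxylated, methylated and decarboxylated by a complex of COQ proteins on the matrix side of that membrane. Outside mitochondria its reduced form acts as an antioxidant that limits lipid peroxidation, and liver cells make their own supply.

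No group had a replicate, so each result is a difference of log2 values between 2 single arrays, with no error and no test, and none can be told from variation between 2 dishes of cells. The array medians over 33297 probe sets were 6.63 (GO), 6.66 (rGO) and 6.65 (control). All 10 genes passed the level filter, a mean of at least 6.66 over the 3 arrays, as did 11050 genes in all. Among these, differences had a robust SD (scaled median absolute deviation) of 0.244 when GO was set against control, 0.116 for rGO against control, and 0.218 for GO against rGO. For pairs of probe sets of 1 gene, the robust SD of their disagreement was divided by the root of 2. It was then 0.0804, 0.0539 and 0.0670 in the same comparisons, a yardstick for disagreement of probe sets alone. Both probe sets of a pair were read on the same arrays. The yardstick thus leaves out array error that they share and variation between dishes. The 8 measured hepatocyte markers had medians of 12.4 in GO, 12.3 in rGO and 12.3 in control, but single markers differed after GO. FGB, a fibrinogen chain gene, stood at -0.85 and TTR, the gene of transthyretin, at 0.70. Of the 8 markers, 5 lay beyond 1 robust SD after GO (2 lower, 3 higher), against 1 of 8 (higher) after rGO. Of all genes, 18.5% lay beyond it below 0 and 15.8% above after GO, and 18.7% and 14.3% after rGO. The part of these markers in the results on the coenzyme Q genes was not tested. Of 5 measured leukocyte markers 2 passed the filter, LYZ (13.43 in GO, 13.38 in rGO and 13.23 in control) and CD68 (9.98, 9.51 and 9.61). PTPRC, which marks leukocytes, was the lowest of the 5, between 3.56 and 3.76. Of 8 fibroblast, stellate and endothelial markers 2 passed, COL1A1 (7.36, 7.26 and 7.43) and PDGFRB (7.30, 6.57 and 6.97). CD68 stood at 0.38 after GO and -0.09 after rGO, and PDGFRB at 0.33 and -0.40.

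The exposed arrays held slightly less signal for most of these genes. In bulk RNA, less transcript per cell and fewer cells that make it cannot be told apart. Against control, 8 of 10 lay below 0 after GO and 9 of 10 after rGO, where 48.9% and 53.1% of all genes did. Their median difference was -0.16 after GO and -0.11 after rGO, against medians of 0.0061 and -0.0084 over all genes. None was at least 1.5-fold higher or lower in either exposure, a size that 6.14% of all genes reached after GO and 0.154% after rGO. The comparisons of GO and of rGO with control share the control array, so a high or low control value moves both. The members were listed with results of these data known, and these counts are a description.

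COQ10A, COQ9 and COQ8A stood lowest in both comparisons with control, whereas COQ7 stood highest after GO. The stretches around the transcription starts of these 4 genes are shown to set the 3 lowest beside the one highest after GO. Each runs 5′ to 3′ on the gene's own strand, from 250 bases before to 50 after the first RefSeq start listed (build GRCh38.p14). Capitals mark matches, on either strand, to the CCAAT box (CCAAT) and the GC box (GGGCGG).
COQ10A, chr12:56266692-56266991, plus strand: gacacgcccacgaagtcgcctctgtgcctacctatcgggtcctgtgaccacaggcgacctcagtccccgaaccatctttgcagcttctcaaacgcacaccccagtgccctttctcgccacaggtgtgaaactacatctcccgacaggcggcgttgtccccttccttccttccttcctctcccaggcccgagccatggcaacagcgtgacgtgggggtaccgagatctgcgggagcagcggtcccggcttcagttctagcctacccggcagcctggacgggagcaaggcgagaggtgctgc
COQ9, chr16:57447229-57447528, plus strand: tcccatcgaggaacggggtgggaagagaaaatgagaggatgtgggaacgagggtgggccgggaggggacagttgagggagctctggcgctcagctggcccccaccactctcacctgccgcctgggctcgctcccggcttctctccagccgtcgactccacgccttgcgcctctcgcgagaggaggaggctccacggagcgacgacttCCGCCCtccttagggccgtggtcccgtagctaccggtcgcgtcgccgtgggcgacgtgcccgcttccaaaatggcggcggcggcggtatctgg
COQ8A, chr1:226940044-226940343, plus strand: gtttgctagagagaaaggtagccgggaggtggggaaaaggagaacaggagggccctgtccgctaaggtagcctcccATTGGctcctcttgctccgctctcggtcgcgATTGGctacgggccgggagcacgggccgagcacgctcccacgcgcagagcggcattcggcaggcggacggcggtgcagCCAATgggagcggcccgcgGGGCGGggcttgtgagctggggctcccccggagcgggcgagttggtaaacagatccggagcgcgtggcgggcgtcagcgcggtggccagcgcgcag
COQ7, chr16:19067364-19067663, plus strand: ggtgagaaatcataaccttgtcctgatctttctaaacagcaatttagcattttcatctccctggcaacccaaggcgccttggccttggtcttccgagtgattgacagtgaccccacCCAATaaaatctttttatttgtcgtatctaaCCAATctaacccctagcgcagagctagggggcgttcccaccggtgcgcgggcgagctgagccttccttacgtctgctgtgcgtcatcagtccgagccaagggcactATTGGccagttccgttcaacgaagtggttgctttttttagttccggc
The COQ10A stretch held neither motif, the COQ9 stretch 1 GC box, the COQ8A stretch 3 CCAAT boxes and 1 GC box, and the COQ7 stretch 3 CCAAT boxes. RefSeq lists 2 starts for COQ10A, 4 for COQ7, 3 for COQ6 and 2 for COQ8B, and only the first of each gene was searched. Over the 8 members with an entry, CCAAT was found in 3 (COQ2, COQ7 and COQ8A), against 35.7% of 27305 promoters, and the GC box in 4 (COQ2, COQ8A, COQ8B and COQ9), against 44.6%. The core letters of the NRF1 site (TGCGCA, in 8.42% of promoters) were found in COQ2 alone, and the ETS site (CCGGAAG, 10.7%) in none of the 8. COQ3 and COQ4 had no entry. A match describes the letters of a window, and the 3 genes lowest in both comparisons had no motif of these 4 in common.

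**Figure D1:**
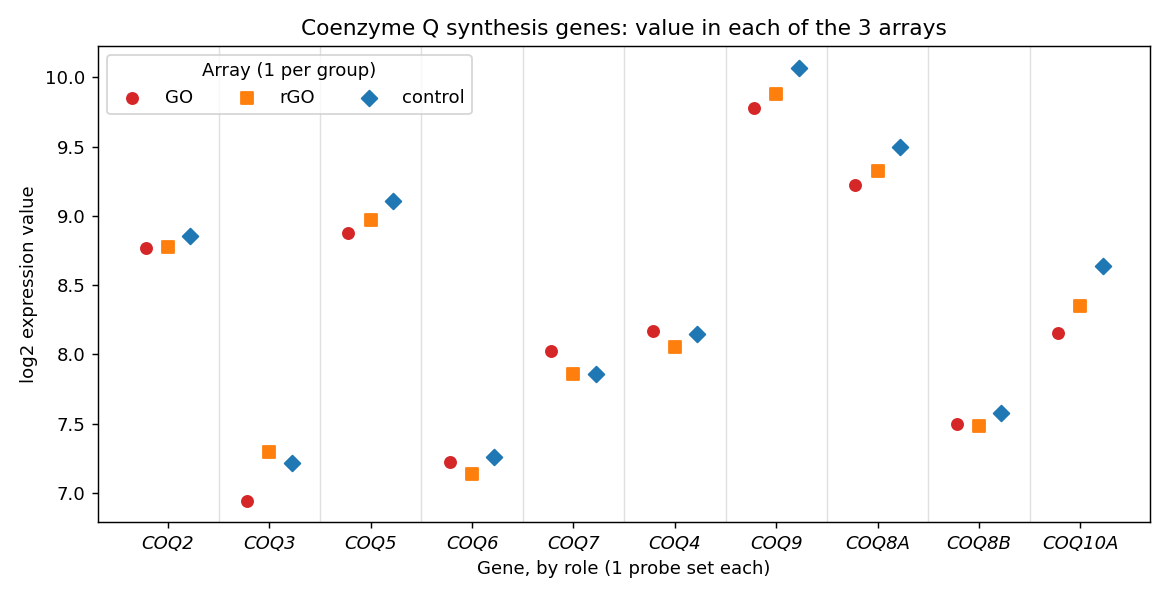
Log2 expression value (vertical axis) of each coenzyme Q gene (horizontal axis, ordered by role) in the GO, rGO and control arrays, 1 point per array. For COQ2, COQ5, COQ8A, COQ9 and COQ10A the control point is the highest and the GO point the lowest; levels of different genes rest on different probes and are not comparable.

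COQ2 encodes the prenyltransferase that joins ring and tail, the step that commits the precursors to the pathway. Its log2 value was 8.77 in GO, 8.78 in rGO and 8.85 in control. Both exposed arrays were lower by less than 1 robust SD, with differences of -0.09 and -0.08, and GO and rGO differed by -0.01, within the disagreement of probe sets.

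The methyltransferases COQ3 and COQ5 were both lower after GO but differed in sign after rGO. COQ3, which methylates oxygen atoms of the ring, had 6.94 in GO, 7.29 in rGO and 7.22 in control. It was the only member higher after rGO (0.07, within 1 robust SD), and it stood at -0.27 after GO. Its GO minus rGO difference of -0.35, a 1.27-fold lower value, was the single member value beyond 1 robust SD in that comparison, where 17.8% of all genes lay beyond it below 0 and 17.1% above. COQ5, which methylates a ring carbon, had 8.88 in GO, 8.97 in rGO and 9.10 in control. Its differences were -0.23 after GO and -0.13 after rGO, the second beyond 1 robust SD. Both methyltransferase genes were thus lowest in GO, but for COQ3 the rGO array was the highest of the 3.

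The ring hydroxylases differed from each other. COQ6, a flavin-dependent monooxygenase, had 7.22 in GO, 7.13 in rGO and 7.26 in control, with differences of -0.04 and -0.13 from control, the second beyond 1 robust SD. COQ7, the di-iron hydroxylase of the penultimate step, had 8.03 in GO, 7.85 in rGO and 7.86 in control. At 0.17 after GO it was the highest member, yet within 1 robust SD of all genes, and at -0.0059 after rGO it was the nearest to 0. After a loess on the mean level its rGO difference changed sign. COQ4, which the assembly of the COQ complex needs, had 8.17 in GO, 8.05 in rGO and 8.14 in control. It resembled COQ7 in order, with GO highest and rGO lowest, and its differences were 0.03 and -0.09.

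COQ9 encodes a lipid-binding protein that works with COQ7 and is required for its hydroxylation step. Its value was 9.78 in GO, 9.88 in rGO and 10.07 in control. The differences of -0.29 after GO and -0.19 after rGO were both beyond 1 robust SD, and 15.2% and 7.66% of all genes lay as low or lower. COQ9 and its partner COQ7 thus had differences of opposite sign after GO.

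COQ8A and COQ8B are paralogs of the UbiB family, atypical kinase-like proteins with ATPase activity that support the COQ complex. Inherited defects of COQ8A cause a cerebellar ataxia, and those of COQ8B a kidney disease. COQ8A had 9.22 in GO, 9.33 in rGO and 9.50 in control, which gave -0.27 and -0.17. COQ8B had 7.50 in GO, 7.48 in rGO and 7.58 in control, which gave -0.08 and -0.10. Only the COQ8A differences lay beyond 1 robust SD, and the difference between the paralogs was not tested. ADCK1, ADCK2 and ADCK5, further genes of that family, stood at 0.12, 0.24 and -0.23 after GO and at -0.04, -0.04 and -0.12 after rGO.

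COQ10A encodes a lipid-binding protein of the START type that binds coenzyme Q and is thought to bring it to its sites of use; it is not an enzyme of the ring. It had the largest differences of the 10 genes in both comparisons with control. Its value was 8.15 in GO, 8.35 in rGO and 8.64 in control, so GO was lowest and control highest. The GO array was 1.40-fold lower (-0.48) and the rGO array 1.22-fold lower (-0.29). Of all genes, 6.86% lay as low or lower after GO and 2.14% after rGO. Its GO minus rGO difference was -0.20, within 1 robust SD. COQ10B, its paralog, had 10.13 in GO, 9.97 in rGO and 10.15 in control, with differences of -0.02 and -0.18. After GO the paralogs thus stood farther apart than after rGO, which was not tested.

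**Figure D2:**
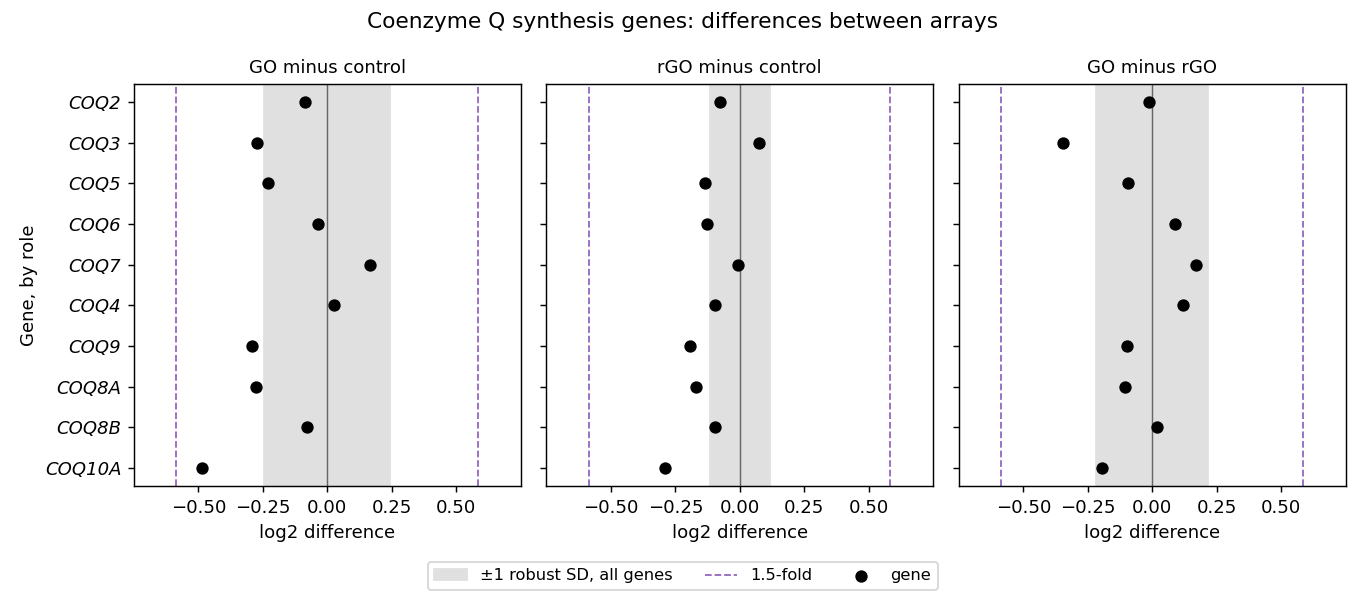
Log2 differences (horizontal axis) of the 10 genes (vertical axis, by role) with a panel for GO minus control, a panel for rGO minus control and a panel for GO minus rGO; the grey band is 1 robust SD of all genes to either side of 0 and the dashed lines are 1.5-fold. COQ8A, COQ9 and COQ10A lie left of the band in both comparisons with control, and no gene reaches a dashed line.

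Beyond 1 robust SD on the lower side lay 4 members after GO (COQ3, COQ8A, COQ9 and COQ10A), where 18.5% of all genes did. After rGO 5 did (COQ5, COQ6, COQ8A, COQ9 and COQ10A), where 18.7% did. These counts moved by 1 with the level filter or normalization, from 3 to 5 after GO and from 4 to 6 after rGO, and COQ6 at -0.13 lay close to the bound of 0.116. COQ8A, COQ9 and COQ10A were in both sets, as 7.8% of all genes were. None lay beyond it on the higher side, where 15.8% of all genes did after GO and 14.3% after rGO. At 1.3-fold COQ10A alone was lower after GO, as 10.4% of all genes were. Set against the smaller yardstick of probe sets of 1 gene, 6 members were lower, 1 was higher (COQ7) and 3 were within it after GO (COQ4, COQ6 and COQ8B). After rGO 8 were lower, 1 was higher (COQ3) and 1 was within it (COQ7).

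The order of the arrays split the members into 4 sets. Control was highest, then rGO, then GO for 5 genes: COQ2, COQ5, COQ8A, COQ9 and COQ10A. Control was highest and rGO lowest for COQ6 and COQ8B, GO was highest and rGO lowest for COQ4 and COQ7, and rGO was highest and GO lowest for COQ3. Control was thus the highest array for 7 members, against 33.3% of all genes. Between the exposures the members differed little. GO minus rGO had a median of -0.05 (0.01 over all genes), with 6 members below 0, where 47% of all genes were. None differed 1.5-fold, a size that 5.02% of all genes reached. COQ2 was below 0 by so little that median centring and quantile normalization turned its sign.

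The genes past the filter nearest to COQ10A in both differences from control were ST3GAL4, VRK2, CAB39L, CEMP1 and CELP. Their distances, over GO minus control and rGO minus control together, were 0.0051 to 0.0198 log2, and 20 genes lay within 0.05. In the GO array CEMP1 (6.59) and CELP (6.54) lay under the filter level of 6.66, which their means over the 3 arrays passed. COQ10A had 8.15 in that array. With only 3 arrays, likeness rests on 2 differences that share the control array.

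The tail and ring precursor genes were less uniform. PDSS1 and PDSS2 encode the subunits of the enzyme that makes the isoprenoid tail. PDSS1 had 9.25 in GO, 9.59 in rGO and 9.72 in control (-0.47 and -0.14), and PDSS2 had 7.25 in GO, 7.21 in rGO and 7.45 in control (-0.20 and -0.24). Both were thus lower in both exposed arrays. PDSS1 lay beyond 1 robust SD in both comparisons, with 7.17% of all genes as low or lower after GO and 14.7% after rGO. PDSS2 lay within 1 robust SD after GO (22.7% as low or lower) and beyond it after rGO (4.41%). Further upstream lie the mevalonate pathway genes, which also feed cholesterol. IDI1, the isomerase of isoprenoid units, stood at -1.30 after GO and -0.24 after rGO, and HMGCS1, the synthase at the pathway's entry, at -0.64 after GO and 0.23 after rGO. HPD, an enzyme of tyrosine breakdown, stood at 0.29 after GO and 0.0023 after rGO. Of the 13 listed genes 11 passed the filter. Of these, 8 were below 0 after GO with 2 at least 1.5-fold lower, and 4 were below 0 after rGO with 0 at that size. Of all 11050 genes, 48.9% were below 0 and 467 at least 1.5-fold lower after GO, and 53.1% were below 0 and 14 at least 1.5-fold lower after rGO; the counts of the lists that follow stand beside the same shares. The list's median was -0.20 after GO and 0.02 after rGO, the second within the disagreement of probe sets (0.0539). After rGO its sign was thus opposite to that of the COQ genes' median, by a small value. PDSS1 and PDSS2 were among the 4 genes below 0 there, while 7 lay above.

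Among 9 measured partners and regulators of the COQ complex, 8 were below 0 after GO and 8 after rGO, with medians of -0.04 and -0.12 and none past 1.5-fold. Beyond 1 robust SD on the lower side lay 1 of the 9 after GO and 5 after rGO, where 18.5% and 18.7% of all genes did. After rGO the COQ genes thus resembled this list in that count and in the median. OMA1, a protease of the inner membrane, stood at -0.58 and -0.22, and the ferredoxin FDX2, which passes electrons in mitochondria, at -0.23 and -0.27. CLPP, a matrix protease, was the one above 0, at 0.35 and 0.13. The phosphatase PPTC7 stood at -0.0065 and -0.12, and STARD7, a lipid transfer protein, at -0.13 and -0.06.

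The enzymes that reduce coenzyme Q had a median of 0.08 after GO, with 5 of 11 below 0, and of -0.09 after rGO, with 9 of 11 below 0. SQOR, which passes electrons from sulphide to coenzyme Q, had 8.93 in GO, 8.13 in rGO and 8.22 in control. At 1.63-fold higher (0.71) after GO it was the one gene of the list past 1.5-fold, and after rGO it stood at -0.09. ETFA and ETFDH, which carry electrons from fatty acid oxidation to coenzyme Q, stood at -0.53 and -0.46 after GO and at -0.15 and -0.18 after rGO. AIFM2 (FSP1), which reduces coenzyme Q outside mitochondria, stood at 0.15 and -0.03. NQO1, a cytosolic quinone reductase, stood at -0.37 and 0.0066.

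Of complex III, which oxidises the reduced form, 9 of 11 listed genes passed the filter, with 5 below 0 after GO (median -0.14) and 9 below 0 after rGO (median -0.10). BCS1L, which inserts the Rieske subunit, stood at -0.33 after GO, UQCRQ at -0.24 and UQCRC1 at 0.24. None of the 9 was past 1.5-fold. The 7 factors of mitochondrial gene expression and biogenesis had medians of -0.0059 and -0.03, with 4 below 0 in each comparison. GABPA, an ETS factor, stood at -0.21 and -0.11, TFAM, which binds mitochondrial DNA, at -0.15 and 0.06, ESRRA, a nuclear receptor, at -0.09 and -0.11, and NRF1 at -0.0059 and -0.04.

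**Figure D3:**
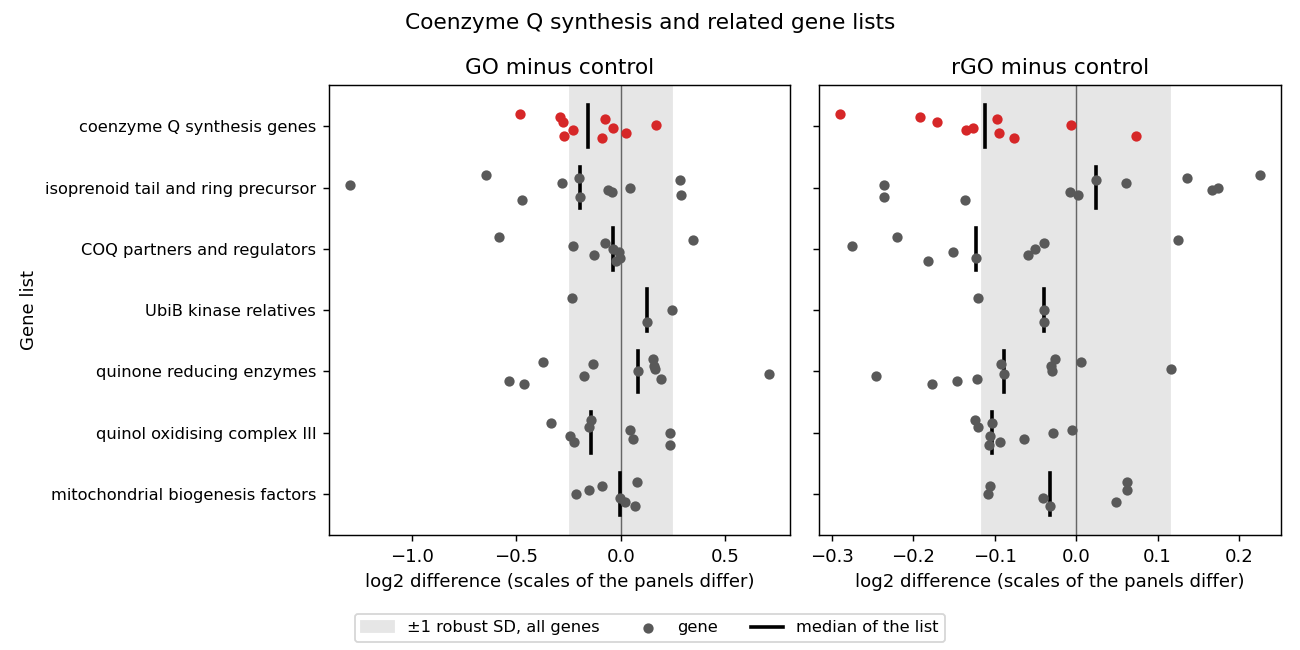
Log2 differences (horizontal axis, on a wider scale for GO) of each gene past the level filter in 7 lists (vertical axis), for GO minus control and rGO minus control; points are genes, black bars list medians and the grey band 1 robust SD of all genes. The coenzyme Q synthesis genes, in red, have a median left of 0 in both panels, -0.16 and -0.11. So do the partners (-0.04 and -0.12), complex III (-0.14 and -0.10) and the biogenesis factors (-0.0059 and -0.03). Medians change side between panels for the tail and precursor list (-0.20 and 0.02), the quinone reducing enzymes (0.08 and -0.09) and the UbiB relatives (0.12 and -0.04).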

How the data were processed

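Total RNA was labelled as biotin cDNA and hybridised to Affymetrix arrays, 1 per group, per the labels' protocols. The deposited values are the authors' log2 expression values per probe set; RMA and MAS5 appear in the submitters' processing notes, with no role or version. Column distributions are near equal and genes are not centred. Further scaling, genome build and annotation were not given in the sources used here.

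Probe sets were named through the platform's annotation, which can be old; 19460 of 33297 carried 1 symbol, and all 10 members kept their symbol in RefSeq by Entrez ID. A gene with several probe sets was read from the one with the highest mean. Genes with a mean at or above the 40th percentile were kept. Differences of log2 values were taken for 3 comparisons and counted at 1.5-fold; with 1 array per group no test exists. Probe set disagreement was the robust SD over 365 genes with 2 differing probe sets, divided by the root of 2, after 66 with identical values were left out. Sequences are from RefSeq. The rule named every member, the 3 genes of each further list with the largest GO difference, and the 5 nearest genes; other list genes were named after their values were seen. The members and lists were chosen with earlier results of these data known. Counting was tested on simulated data with planted changes far larger than the threshold and noise below the spread of GO minus control. That checks the code and says nothing of differences as small as those of the members. Alternatives were quantile normalization, median centring, loess (span 0.3), averaged probe sets, other level filters (none, 60th percentile), 2-fold and 1.3-fold thresholds, and means in place of medians. The counts below 0 and beyond 1 robust SD were added after the data were seen. Python 3.11.15, numpy 2.4.6, pandas 2.3.3, statsmodels 0.14.6 and matplotlib 3.10.9 were used.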

Additional observations from a re-analysis of the deposited data

How the results depend on the processing

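The median of the 10 genes stayed below 0 in all 3 comparisons under each of the 7 alternatives tried for it. It ran from -0.23 to -0.13 for GO minus control, -0.13 to -0.10 for rGO minus control and -0.09 to -0.02 for GO minus rGO. Averaging probe sets and dropping the level filter could not move it, as each member had 1 probe set and all 10 passed. Each gene's own difference moved by at most 0.0412 under the normalizations, less than the disagreement of probe sets, and the sign changed for COQ7 in rGO minus control with loess and for COQ2 in GO minus rGO with median centring and quantile normalization. At 1.3-fold 1 member, COQ10A, was lower in GO minus control, where 10.4% of all genes were. Members beyond 1 robust SD below 0 numbered 5 after GO without the level filter and 3 with the 60th percentile filter, against 4, and 6 after rGO with quantile normalization and 4 with either other filter, against 5. With the 60th percentile filter, which kept 7 members, 5 were below 0 in GO minus control, and 0 lay beyond 1 robust SD below 0 in GO minus rGO because COQ3 was filtered out. Counts of all genes depended on the size chosen. At 1.5-fold 211 were higher and 467 lower in GO minus control, with 28 and 101 at 2-fold and 725 and 1149 at 1.3-fold. In GO minus rGO 201 and 354 became 29 and 59 at 2-fold and 685 and 926 at 1.3-fold. In rGO minus control 3 and 14 became 0 and 2 at 2-fold and 33 and 99 at 1.3-fold; 14 and 52 without the level filter; 0 and 9 with the 60th percentile filter; and 1 was higher with probe sets averaged. The number of arrays limits the precision. No paired analysis was possible because each group holds 1 array.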
